A study of Mus musculus with 24 samples.

Results

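The 8 genes described here are complement genes: C1qa, C1qb and C1qc, which encode the chains of the initiator C1q; C4b and its close copy C4a; C3, the central component; C3ar1, the receptor for the C3a fragment; and Serping1, the C1 inhibitor. They were chosen by symbol, 8 of the 49568 gene symbols counted in each library, and each of the 8 was read once in each of the 24 libraries. The study asked how housing and the kinase MSK1 affect hippocampal gene expression in old male mice on a C57-Bl/6J background. There were 4 groups: wild-type mice in standard housing (WTSH) or in an enriched environment (WTEE), and mice homozygous for a kinase-dead MSK1 knock-in (MSK1 KD) in standard housing (KDSH) or in an enriched environment (KDEE). Enriched mice were moved at 18 months to large cages with a running wheel, tunnels, platforms and toys that were moved and replaced, and hippocampal RNA was taken from every group at 21 to 23 months, from mice that the study's RNA methods call experimentally naive. The knock-in is carried by every cell of the body and was kept as a line separate from the WT line, so genotype and line cannot be told apart; enriched mice lived in larger groups, and which mice shared a cage is not known here, so p-values measure the spread between these mice.

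The study itself set aside WTSH-4, WTSH-7 and KDSH-6 (libraries are named by group and the study's sample number), and the comparisons below use the other 21: 4 WTSH, 6 WTEE, 5 KDSH and 6 KDEE, each from 1 mouse. Counts on genes ranged from 27410239 to 71907130 in these 21 libraries. Structural RNA gene models held 11.1% and 12.4% of the gene counts in WTSH-4 and WTSH-7 and 3.14% in KDSH-6, against at most 0.886% in the others. A single library, WTEE-10, gave 73.1% of the sum of squares on the first principal component of 10829 genes (those with a mean log2 CPM above 3), and no other library gave more than 5.12%. Markers of choroid plexus (10 genes, among them Ttr) summed to between 2734 and 9913 CPM (counts scaled to a common library total) in WTSH-19, WTEE-10, WTEE-13, KDEE-12 and KDEE-14, against 31.6 to 126 CPM in the other 16. These 5 are called choroid-rich below, and the values without them are given beside the results that they move most. The knock-in is a point substitution that leaves the transcript in place, so the level of Rps6ka5, the gene for MSK1, does not check the genotype; its normalized count was 1119 ± 101 in WTSH, 1043 ± 190 in WTEE, 1158 ± 21.9 in KDSH and 1140 ± 27.5 in KDEE (mean ± SD), with WTEE-10 the lowest library at 666.

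Complement is a cascade of plasma and tissue proteins that tags material for removal. In the classical pathway, C1q binds its target and activates the proteases C1r and C1s, which cut C4 and C2 to form an enzyme that cuts C3; the C3b fragment stays bound to the target and the released C3a fragment signals through C3ar1. Serping1 blocks the C1r and C1s proteases. In the brain, microglia are the main source of C1q and carry C3ar1, astrocytes express C4b, and C1q and C3 are known for tagging synapses that microglia remove during development and ageing. C4a, once named Slp for sex-limited protein, arose with C4b by gene duplication.

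The genes lie in few places of the genome (GRCm38). C1qb (chr4:136880129-136886187), C1qc (chr4:136889804-136893065) and C1qa (chr4:136895917-136898803) sit side by side on the minus strand, within 18675 bases. C4b (chr17:34728380-34743882) and C4a (chr17:34809092-34823464) are on the minus strand of chromosome 17, with 65209 bases between them. C3 (chr17:57203970-57228136) is farther along that chromosome, C3ar1 is at chr6:122847138-122856161 and Serping1 at chr2:84765387-84775444. The annotation gives C4a the biotype processed transcript and the other 7 genes protein coding. The longest annotated transcripts of C4a (5371 bases) and C4b (5379 bases) were identical at 96.1% of 5367 aligned positions, and the longest identical run was 433 bases. Of the windows of 50 bases along the C4a transcript, 35.2% also occurred in C4b, and of the windows of 150 bases, which is the read length, 8.27% did. A read pair that fell wholly in shared sequence could not be placed uniquely, and only unique alignments were counted. The 60-base window with the most differences, 13, lies in exon 21 of both transcripts, at chr17:34816086-34816145 in C4a and chr17:34735430-34735489 in C4b. It is shown because sequence of this kind is what lets the copies be counted apart. The transcript strand is given 5′ to 3′, and capitals mark the bases that differ.
C4a: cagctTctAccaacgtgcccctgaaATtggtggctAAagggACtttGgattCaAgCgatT
C4b: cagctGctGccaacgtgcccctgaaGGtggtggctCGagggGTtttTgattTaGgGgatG

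Promoter sequences from 250 bases before to 50 bases after the start were at hand from RefSeq (GRCm38.p6) for 4 of the 8 genes, C1qb, C1qc, C3 and C3ar1. Those of C1qb and C1qc are shown because the C1q genes varied together across mice (below), and that of C3 because it holds a motif that few promoters hold. They were searched on both strands for GAGGAA, a core motif of the PU.1 family of microglial factors, and for TTGCGAAA, a C/EBP type motif. Capitals mark the match. GAGGAA occurred in 28.3% of 32851 promoters, C1qb and C1qc among them, and TTGCGAAA in 0.174%, C3 among them; C3ar1 held neither. In C1qb (chr4:136886151-136886450) and C3 (chr17:57228087-57228386) the match is on the strand shown, and in C1qc (chr4:136892865-136893164) it is on the other strand and reads as TTCCTC. All 3 are minus-strand genes and are printed in the direction of transcription.
C1qb: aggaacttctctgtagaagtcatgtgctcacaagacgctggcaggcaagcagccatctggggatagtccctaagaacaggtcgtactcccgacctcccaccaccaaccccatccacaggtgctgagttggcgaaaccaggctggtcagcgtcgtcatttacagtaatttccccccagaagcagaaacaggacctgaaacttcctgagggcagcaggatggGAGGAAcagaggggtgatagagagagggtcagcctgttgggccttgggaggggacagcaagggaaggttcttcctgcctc
C1qc: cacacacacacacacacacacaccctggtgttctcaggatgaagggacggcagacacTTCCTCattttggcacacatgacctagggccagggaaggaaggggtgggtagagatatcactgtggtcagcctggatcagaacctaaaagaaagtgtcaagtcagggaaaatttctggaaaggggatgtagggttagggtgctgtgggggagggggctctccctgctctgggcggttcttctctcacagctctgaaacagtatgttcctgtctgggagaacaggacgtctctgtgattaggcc
C3: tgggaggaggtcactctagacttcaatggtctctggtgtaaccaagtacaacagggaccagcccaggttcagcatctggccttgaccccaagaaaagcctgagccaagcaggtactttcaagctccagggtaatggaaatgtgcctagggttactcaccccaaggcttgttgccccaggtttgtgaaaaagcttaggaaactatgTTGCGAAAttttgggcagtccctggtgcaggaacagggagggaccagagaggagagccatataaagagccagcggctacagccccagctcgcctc

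The 8 genes spanned a wide range of levels. Values between genes are compared only as CPM per kilobase of exon, with each gene's merged exons as its length. On that scale C1qa (70.5 ± 19.98, SD, n = 21) and C1qb (68.3 ± 18.0) were highest, C4b (47.6 ± 7.83) and C1qc (34.2 ± 8.07) came next, Serping1 (3.33 ± 1.78), C3 (2.82 ± 1.13) and C3ar1 (0.750 ± 0.145) were far lower, and C4a (0.440 ± 0.111) was lowest. C1qa and C1qb could not be ordered, since C1qb was above C1qa in 7 of 21 libraries, and neither could Serping1 and C3, with Serping1 above C3 in 13. C1qa exceeded C4b in 21 of 21 libraries and C4b exceeded C3 in 21 of 21, by 11.4 to 28.6 times. The merged exon length of C1qc is 1931 bases, against 1040 for C1qa and 1088 for C1qb, and a shorter transcript in use would raise its level per kilobase.

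All other levels are normalized counts, scaled by TMM so that libraries can be compared for 1 gene but not between genes. A gene was called in a comparison when edgeR's quasi-likelihood test gave a Benjamini-Hochberg adjusted p under 0.05 over all 20187 genes tested and an absolute log2 fold change over 0.38. All 8 genes passed the filter on low counts. None was called in any of the 7 comparisons, and edgeR called few genes at all: 0% in WTEE against WTSH, 0% in KDEE against KDSH, 0% in KDSH against WTSH, 0% in KDEE against WTEE, 0.00495% (1 gene, Ighm) for enriched against standard housing over both genotypes, 0% for KD against WT over both housings and 0% for the interaction. At an unadjusted p under 0.05, which is a description and not a call, 3 of 8 members passed in WTEE against WTSH (C1qa, C1qb and C1qc; 6.55% of all genes), 1 in KDEE against KDSH (C4a; 11.6%), and 5 for housing over both genotypes (C1qa, C1qb, C1qc, C3ar1 and C4a; 18.9%). At that level 0 passed in KDSH against WTSH (1% of all genes), 0 in KDEE against WTEE (4.99%), 0 for genotype over both housings (1.9%) and 0 for the interaction (3.26%). DESeq2, the study's tool, called more genes by the same thresholds: 2 in WTEE against WTSH (0.00529%), 14 in KDEE against KDSH (0.0866% of those it adjusted), 0 in KDSH against WTSH, 118 in KDEE against WTEE (0.438%), 41 for housing over both genotypes (0.233%), 0 for genotype over both housings and 20 for the interaction (0.0762%). C4a, in KDEE against KDSH and over both genotypes, was the 1 member among them. With housing over both genotypes, 7 of 8 members were higher in enriched mice and C4a was lower. The median log2 difference of the 8 was 0.32, against 0.01 for all genes tested. The 3 C1q genes varied together across mice, as did C3 and C4b (below). The 8 members are therefore not independent readings, and these counts and this median are descriptions. In bulk hippocampus, more cells of a type and more RNA per cell cannot be told apart.

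**Figure D1:**
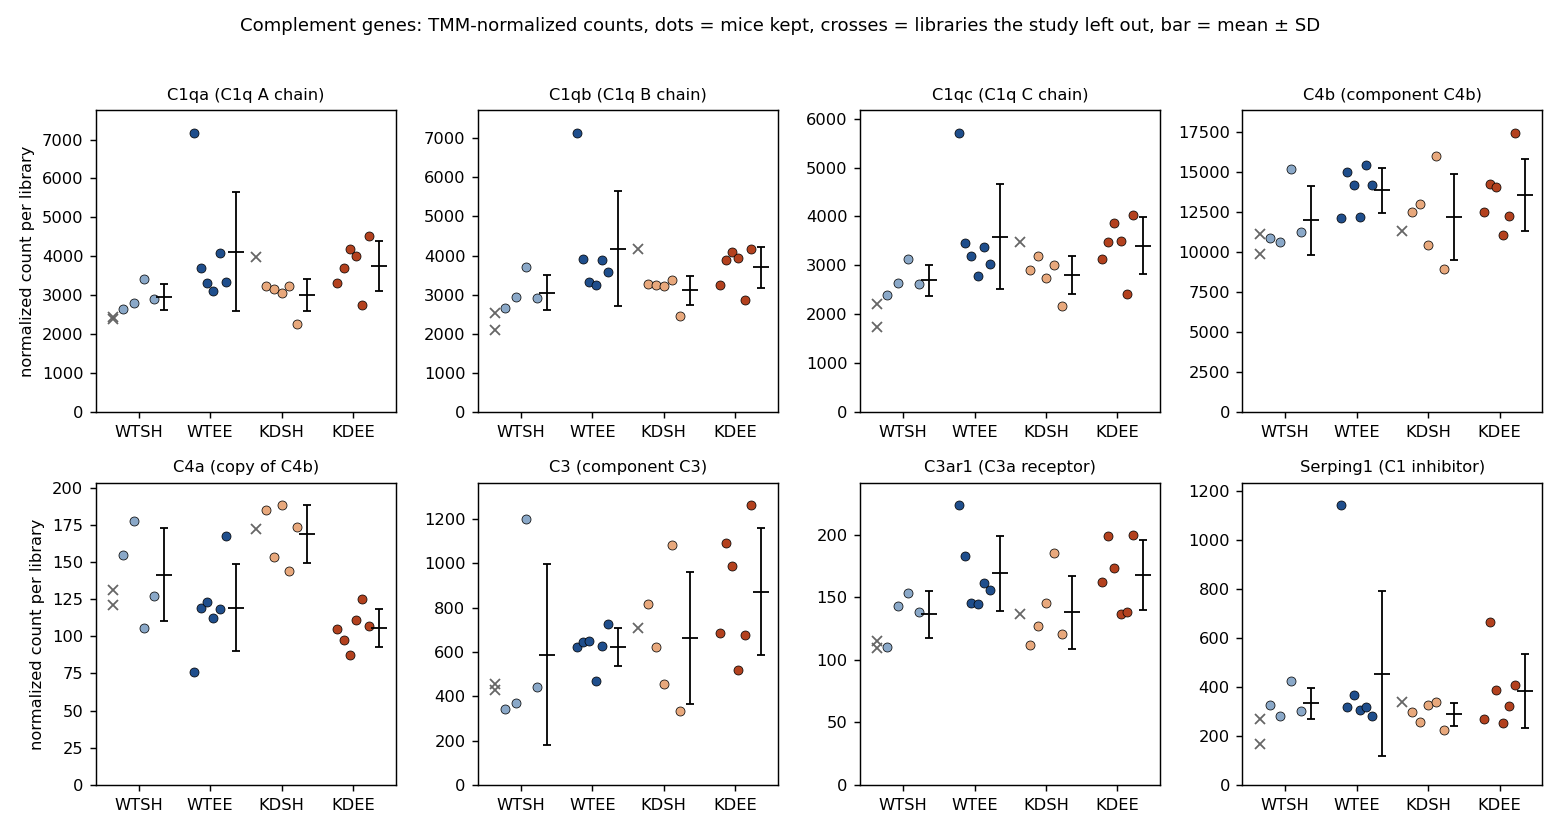
Normalized count (vertical axis, from 0) of each complement gene in each library by group, with dots for the 21 kept mice, crosses for the 3 libraries the study left out (scaled by TMM over all 24 libraries) and a bar for the mean ± SD of the dots. WTEE-10, the first dot of WTEE, stands above the other WTEE dots for C1qa at 7174 and for Serping1 at 1143, and the C4a dots of KDSH (144 to 188) and KDEE (88 to 125) do not overlap.

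The C1q genes were higher in enriched than in standard-housed mice of both genotypes, by amounts that did not pass the call. C1qa, the A chain, had normalized counts of 2658, 2801, 2906 and 3421 in WTSH, and from 3114 to 7174 with a median of 3521 in the 6 WTEE mice. Its 5 KDSH values were 2273, 3073, 3172, 3240 and 3241, and its 6 KDEE values ran from 2763 to 4517 with a median of 3864. WTEE overlapped WTSH only through the highest WTSH library, WTSH-19, and KDEE overlapped KDSH through KDEE-20. The log2 difference of C1qa was 0.48 (SE 0.19, 95% interval 0.09 to 0.88, unadjusted p = 0.0179, adjusted p = 0.651) in WT mice. In MSK1 KD mice it was 0.32 (SE 0.18, 95% interval -0.04 to 0.69, adjusted p = 0.460). Averaged over genotypes it was 0.40 (SE 0.13, 95% interval 0.14 to 0.67, unadjusted p = 0.00506, adjusted p = 0.1998), a fold of 1.32.

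C1qb and C1qc, the B and C chains, gave close to the same picture. C1qb averaged 3055 ± 452 in WTSH, 4177 ± 1475 in WTEE, 3113 ± 371 in KDSH and 3697 ± 522.1 in KDEE (SD), and its log2 difference over both genotypes was 0.35 (SE 0.12, adjusted p = 0.211). C1qc averaged 2692 ± 311, 3587 ± 1068, 2800 ± 388 and 3405 ± 575 in the same order, with a log2 difference of 0.35 (SE 0.11, adjusted p = 0.202). In the 21 libraries the ratio of counts ran from 0.924 to 1.09 for C1qa to C1qb, from 0.996 to 1.26 for C1qa to C1qc and from 1.02 to 1.25 for C1qb to C1qc. Across mice, with group means removed, the deviations of C1qa and C1qb correlated with r = 0.98 and rho = 0.96, those of C1qa and C1qc with r = 0.97 and rho = 0.95, and those of C1qb and C1qc with r = 0.97 and rho = 0.97 (n = 21; each permutation p = 1e-05, the smallest that 100000 permutations within groups can give, adjusted p = 2.25e-05 over 9 pairs). Without the 2 libraries farthest from the median, WTEE-10 and either KDEE-20 or WTSH-19, r was still 0.96, 0.95 and 0.94.

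WTEE-10 carried much of the WT difference. It held 7174, 7135 and 5710 normalized counts of C1qa, C1qb and C1qc, against at most 4088, 3905 and 3448 in the other 5 WTEE mice. Without it, the log2 differences of C1qa, C1qb and C1qc in WT mice were 0.26 (SE 0.12), 0.23 (SE 0.11) and 0.23 (SE 0.12), with unadjusted p between 0.0535 and 0.0700. Over both genotypes they were then 0.29, 0.24 and 0.26 (adjusted p = 0.108, 0.117 and 0.119), with smaller standard errors (0.08 each). The spread that all groups share was then smaller too, and in MSK1 KD mice the C1qa difference of 0.33 had an unadjusted p of 0.00876 (adjusted p = 0.124). Without the 5 choroid-rich libraries, WTEE-10 and WTSH-19 among them, the differences over both genotypes were 0.32, 0.28 and 0.27 (adjusted p = 0.201, 0.1996 and 0.224). In WT mice they were then 0.35 (SE 0.14), 0.36 (SE 0.12) and 0.31 (SE 0.14). Their unadjusted edgeR p were 0.0222, 0.00630 and 0.0360, with an adjusted p of 0.923 for each. In MSK1 KD mice they were 0.28, 0.19 and 0.22. By DESeq2, the study's tool, the C1q genes were not called for housing over both genotypes (adjusted p from 0.0887 to 0.113), but leaving out 1 library could change that. C1qa was called in 3 of 21 such fits, C1qc in 2 and C1qb in 1, and each of these calls came without KDEE-20, WTSH-19 or WTEE-21. The number of all genes called in such fits is not given here.

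Other microglial genes were measured beside C1q. Of 13 microglial markers tested, 12 were higher in enriched mice over both genotypes, with a median log2 difference of 0.13. An unadjusted p of 0.05 was passed by 4 (18.9% of all genes did so): Tyrobp (0.34), Trem2 (0.31), Aif1 (0.29) and Cd68 (0.17). Cx3cr1, the fractalkine receptor, averaged 2913 ± 415 in WTSH, 2748 ± 144 in WTEE, 2868 ± 297 in KDSH and 3171 ± 270 in KDEE. The 13 markers summed to between 414 and 521 CPM in WTSH, 446 and 551 in WTEE, 393 and 509 in KDSH, and 443 and 555 in KDEE. The mean log2 CPM of the 3 C1q genes lay above the mean of the 13 markers by 1.23 ± 0.12 in WTSH, 1.53 ± 0.27 in WTEE (1.43 ± 0.06 without WTEE-10), 1.24 ± 0.07 in KDSH and 1.35 ± 0.15 in KDEE (SD). In WTEE-10 Sall1, a microglial transcription factor, was at its lowest (840), and Tyrobp (1991), Trem2 (2082) and Aif1 (468) were at their highest. Blood genes moved too: all 5 were higher in enriched mice at an unadjusted p under 0.05, with a median log2 difference of 1.46. Whether cell makeup or blood had a part in the C1q differences was not tested.

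The patterns most like those of the C1q genes, by Pearson r of log2 CPM over the 21 libraries, were those of genes that microglia express. For C1qa these were Tyrobp, an immune receptor adaptor (r = 0.97), Ctss, a lysosomal protease (0.94), and Rgs10 (0.94). For C1qb they were Tyrobp (0.97), Ctss (0.95) and Rgs10 (0.94), and for C1qc Tyrobp (0.97), Ctss (0.95) and Ifngr1 (0.93). Without WTEE-10 the r with Tyrobp was 0.93 for C1qa, 0.94 for C1qb and 0.95 for C1qc, and with Ctss it was 0.93, 0.96 and 0.93. These are descriptions, since the libraries share groups and the genes were picked as the highest of all those tested.

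**Figure D2:**
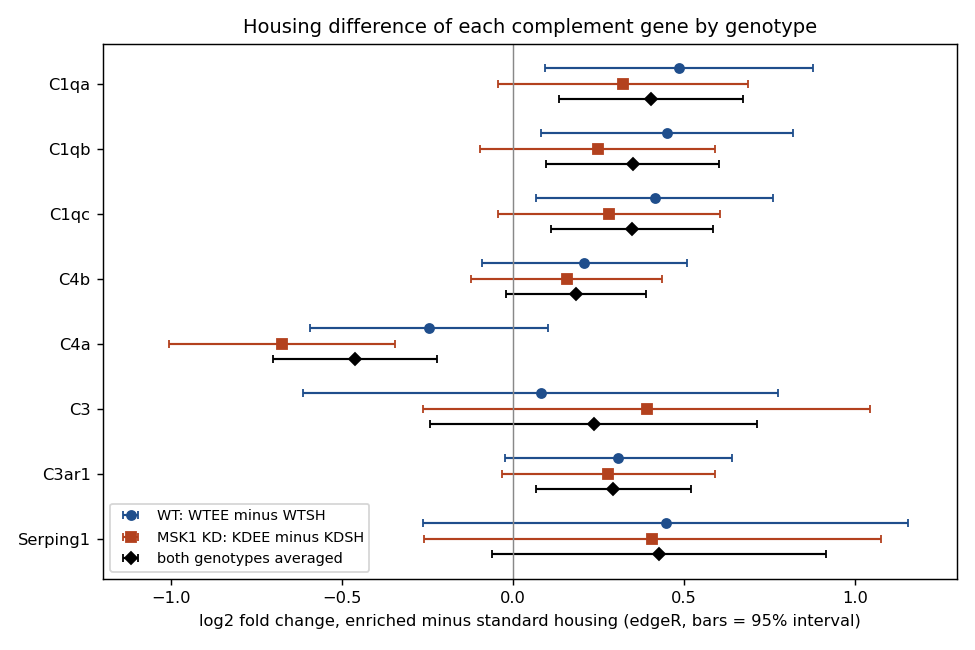
Log2 fold change of each complement gene for enriched minus standard housing (horizontal axis, edgeR, bars for the 95% interval) in WT mice, in MSK1 KD mice and averaged over both. C4a is the only member left of 0, with -0.68 in MSK1 KD mice, and the C1q genes and C3ar1 lie at 0.29 to 0.40 when averaged.

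C4b, the C4 of the classical pathway, was the most counted member, and its housing differences did not pass. Its counts were 10645, 10850, 11261 and 15186 in WTSH and 12125 to 15425 with a median of 14173 in WTEE. They were 8912, 10445, 12513, 13015 and 16020 in KDSH and 11045 to 17449 with a median of 13268 in KDEE. The groups overlapped in both genotypes. The log2 difference for housing was 0.21 (SE 0.14) in WT mice, 0.16 (SE 0.13) in MSK1 KD mice and 0.18 (SE 0.10, 95% interval -0.02 to 0.39, adjusted p = 0.302) over both. In WTSH, WTSH-19 stood apart at 15186, and without it the WT difference of C4b was 0.35. Without the 5 choroid-rich libraries it was 0.38 in WT mice (SE 0.16, unadjusted p = 0.0305, adjusted p = 0.923) and 0.25 over both genotypes (unadjusted p = 0.0295, adjusted p = 0.297). In MSK1 KD mice the difference was 0.06 without KDSH-24 and 0.28 without KDSH-18.

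C4a was lower in KDEE than in KDSH mice, while in WT mice the difference had the same sign but a 95% interval that spanned both signs. It was far less counted than C4b, with 51.2 to 163 counts of C4b for each count of C4a (median 108). In KDSH its normalized counts were 144, 154, 174, 185 and 188, and in KDEE 88, 98, 105, 107, 111 and 125. No KDEE value reached the lowest KDSH value; C4a was the 1 member of 8 whose groups did not overlap in this comparison, which held for 1.84% of all genes. In WTSH it was 106, 127, 155 and 178, and in WTEE 76, 112, 118, 119, 123 and 167, so that the WT groups overlapped, as they did for all 8 members (0.986% of all genes did not). The raw counts of C4a were 62 to 182 per library. The log2 difference was -0.68 (SE 0.16, 95% interval -1.01 to -0.35, unadjusted p = 0.000347, adjusted p = 0.338) in MSK1 KD mice and -0.25 (SE 0.17, 95% interval -0.59 to 0.10, adjusted p = 0.651) in WT mice, where it was -0.11 without WTSH-5 and -0.14 without WTEE-10. Averaged over both it was -0.46 (SE 0.12, adjusted p = 0.179). The difference between the genotypes, -0.43 (SE 0.23, 95% interval -0.91 to 0.05, unadjusted p = 0.0772, adjusted p = 0.9999), did not pass. Without WTEE-10 it was -0.53 (SE 0.20, unadjusted p = 0.0157, adjusted p = 0.972). The genotype differences of C4a did not pass, at 0.26 (SE 0.17, unadjusted p = 0.158) in KDSH against WTSH and -0.18 (SE 0.15, unadjusted p = 0.263) in KDEE against WTEE. The first was 0.14 without WTSH-19 and 0.30 with all 24 libraries (unadjusted p = 0.04998, adjusted p = 0.99997), and the second was -0.06 without WTEE-21.

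DESeq2 called C4a where edgeR did not. Its adjusted p was 0.0358 in KDEE against KDSH, where it called 0.0866% of the genes it adjusted, and 0.0304 for housing over both genotypes, where it called 0.233%, at log2 differences of -0.68 and -0.46. Each of these calls was kept in 6 of 21 fits that left out 1 library, and the adjusted p of those fits ran from 0.00536 to 0.461 in KDEE against KDSH. Among the edgeR fits without 1 library the log2 difference in MSK1 KD mice stayed between -0.73 and -0.63, and the adjusted p between 0.0794 and 0.617. Without the choroid-rich libraries it was -0.59 (SE 0.14) by edgeR with adjusted p = 0.329, and DESeq2 did not call C4a in MSK1 KD mice (adjusted p = 0.0601). Over both genotypes the log2 difference was then -0.42 by either tool. DESeq2 called C4a there (adjusted p = 0.0320), as 1 of 31 genes called among the 15749 it adjusted. The edgeR fit did not call it (adjusted p = 0.184).

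The ratio of C4a to C4b counts within a library needs no scaling between libraries. Its log2 values were -6.79, -6.40, -6.07, -5.79 and -5.67 in KDSH and -7.34, -7.32, -7.18, -6.89, -6.63 and -6.60 in KDEE. They were -7.16, -6.46, -6.12 and -5.90 in WTSH and -7.31, -7.02, -6.97, -6.85, -6.75 and -6.40 in WTEE. All but the lowest KDSH mouse were above every KDEE mouse, and 3 of 4 WTSH mice lay above 5 of 6 WTEE mice. The share of C4a in the 2 copies was 1.44% ± 0.42 in KDSH, 0.792% ± 0.18 in KDEE, 1.22% ± 0.41 in WTSH and 0.852% ± 0.18 in WTEE (SD). The mean log2 ratio fell by 0.85 from KDSH to KDEE (exact two-sided permutation test over 462 regroupings, p = 0.0108, adjusted p = 0.0325 over 6 comparisons). From WTSH to WTEE it was lower by 0.47 on the same scale, which did not pass (exact p = 0.119, adjusted p = 0.238). Over both genotypes it fell by 0.66, with a fold of 0.633 (exact p = 0.00225 over 97020 regroupings within genotype, adjusted p = 0.0135). It was lower in enriched mice at every omission of a single library, where p over both genotypes stayed between 0.000206 and 0.00691 by the same exact permutation test. Genotype comparisons of the ratio did not pass: 0.26 for KDSH against WTSH (exact p = 0.460), -0.11 for KDEE against WTEE (exact p = 0.554) and 0.08 over both housings (exact p = 0.694). The WT difference turned on WTSH-19, without which it was -0.72 (exact p = 0.0238). Without the 5 choroid-rich libraries it was -0.62 in WT mice (exact p = 0.0857), -0.72 in MSK1 KD mice (exact p = 0.0476) and -0.67 over both (exact p = 0.00295). The exact p-values with libraries left out are not adjusted over the 6 comparisons. That of 0.0476 in MSK1 KD mice is therefore not a pass on the scale of the adjusted p = 0.0325 above. Summed as 1 gene, C4a and C4b differed by a log2 of 0.18 (SE 0.10, adjusted p = 0.309) for housing over both genotypes. With so small a share of C4a the sum could only follow C4b, so it does not show how reads were split between the copies.

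C4a and C4b did not vary together across mice. With group means removed, r was -0.26 (permutation p = 0.235) and rho -0.39 (permutation p = 0.0986; n = 21). Without WTEE-10 and WTEE-21, the 2 farthest mice in C4a, r was -0.56. The patterns most like C4a over the 21 libraries were those of Mir124a-1hg, the host transcript of a neuronal microRNA (r = 0.91), D930015E06Rik (0.90) and Mapk14, the p38 kinase gene (0.90). For C4b they were Mpeg1, a macrophage gene (0.87), Cd109 (0.86) and Serpina3n, a gene of reactive astrocytes (0.85; 0.91 without WTEE-10). The share of counts on long intergenic noncoding RNA genes was also lower in KDEE, at 0.620% to 0.882% with a median of 0.692%, than in KDSH, at 0.825% to 1.02% with a median of 0.853%. In WTSH it was 0.761% to 0.936% with a median of 0.825%, and in WTEE 0.733% to 0.943% with a median of 0.756%. Read pairs outside annotated exons made up 8.41% to 10.9% in KDEE and 9.81% to 12.3% in KDSH. The part of these library differences in the C4a result was not tested, nor was how many C4a counts came from C4b molecules.

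**Figure D3:**
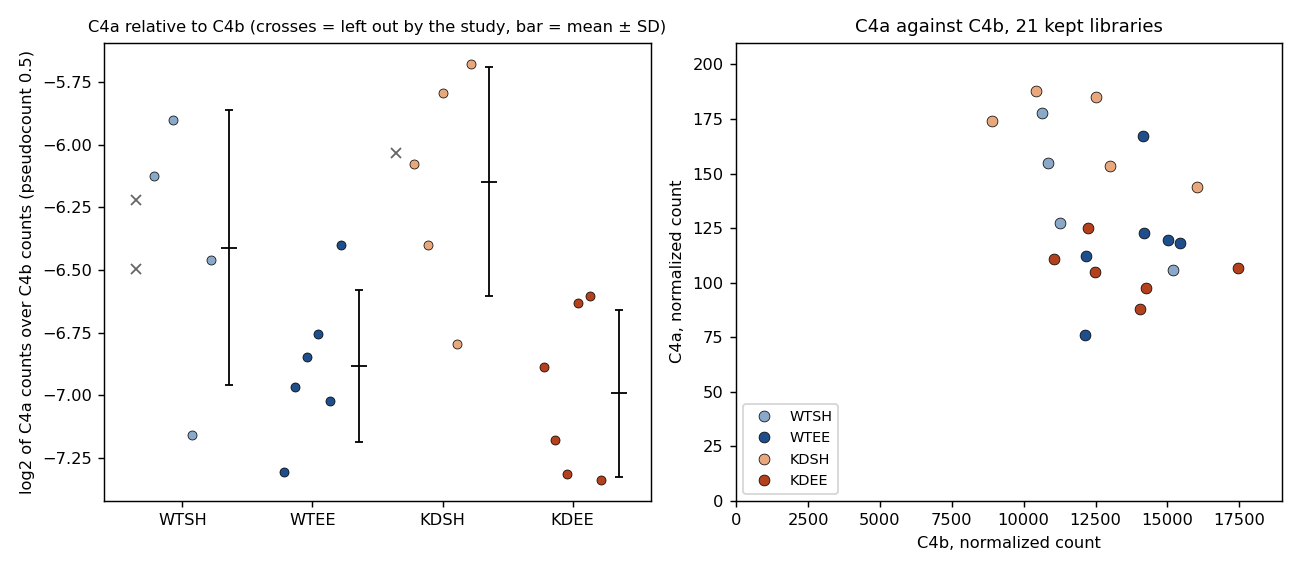
Left, log2 of C4a counts over C4b counts (pseudocount 0.5) in each library by group, with crosses for libraries the study left out and a bar for the mean ± SD of the kept ones; right, C4a against C4b as normalized counts, from 0, in the 21 kept libraries. The ratio averages -6.15 in KDSH and -6.99 in KDEE, and the KDEE dots lie low on the C4a axis (88 to 125) while their C4b counts (11045 to 17449) overlap those of the other groups.

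C3, the component at which the activation routes meet, varied more between mice than with housing. In WTSH it was 343, 370, 443 and 1200, in WTEE 468 to 729 with a median of 637, in KDSH 334, 455, 623, 818 and 1085, and in KDEE 521 to 1262 with a median of 839. The groups overlapped in both genotypes. The log2 difference for housing was 0.08 (SE 0.33, 95% interval -0.62 to 0.78) in WT mice and 0.39 (SE 0.31, 95% interval -0.26 to 1.04) in MSK1 KD mice, with adjusted p of 0.934 and 0.594. The WT value rested on WTSH-19, a choroid-rich library, without which it was 0.70. It was 0.68 (unadjusted p = 0.0501, adjusted p = 0.923) without all 5 choroid-rich libraries, and for housing over both genotypes it then went from 0.24 to 0.45 (unadjusted p = 0.0461, adjusted p = 0.334). In MSK1 KD mice it was 0.22 without KDSH-24, 0.64 without KDSH-18 and 0.23 without the choroid-rich libraries. C3 and C4b varied together across mice, with r = 0.91 and rho = 0.86 of their deviations from group means (each permutation p = 1e-05, adjusted p = 2.25e-05, n = 21), and r = 0.89 without WTSH-19 and KDSH-24. Mpeg1 was the gene most like C3 as well (r = 0.91), followed by Pm20d1 (0.90) and S1pr3 (0.89). C3 and C4a had r = -0.40 (permutation p = 0.0676, adjusted p = 0.0870; rho = -0.44, permutation p = 0.0734).

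C3ar1, the receptor through which C3a acts on microglia, was counted 97 to 232 times per library. Its normalized counts were 110, 143, 138 and 154 in WTSH-2, WTSH-5, WTSH-23 and WTSH-19, and 145 to 224 with a median of 159 in WTEE. In KDSH they were 112, 121, 127, 145 and 186, and in KDEE 136 to 200 with a median of 168. The ranges overlapped, and the log2 differences were alike in WT (0.31, SE 0.16) and MSK1 KD mice (0.28, SE 0.15), with an interaction of -0.03 (95% interval -0.48 to 0.42). Over both genotypes C3ar1 was higher by 0.29 (SE 0.11, 95% interval 0.07 to 0.52, unadjusted p = 0.0141, adjusted p = 0.224), a fold of 1.23. Its deviations across mice followed those of C1qa with r = 0.64 (permutation p = 0.00322, adjusted p = 0.00580; rho = 0.55, permutation p = 0.0166), and with r = 0.48 without WTEE-10 and KDEE-20. The genes most like it were Lyz2, a macrophage lysozyme (r = 0.88), Cp, ceruloplasmin (0.88), and Cd84 (0.87).

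Serping1, which restrains the first step of the classical pathway, differed most between single mice. It was 281, 303, 325 and 426 in WTSH, 283 to 368 in 5 WTEE mice and 1143 in WTEE-10, 224, 256, 300, 326 and 338 in KDSH, and 251 to 410 in 5 KDEE mice and 666 in KDEE-12. The highest library of WTSH, WTEE and KDEE was in each case choroid-rich. The log2 difference for housing was 0.45 (SE 0.34) in WT mice, 0.41 (SE 0.32) in MSK1 KD mice and 0.43 (SE 0.23, 95% interval -0.06 to 0.91, adjusted p = 0.308) over both. Without WTEE-10 the WT value was -0.07 (SE 0.21), without KDEE-12 the MSK1 KD value was 0.18, and without the choroid-rich libraries they were 0.01 and 0.10. Over both genotypes it was 0.17 without WTEE-10, and without the 5 choroid-rich libraries the value over both genotypes was 0.06 (SE 0.10, adjusted p = 0.828). The genes most like Serping1 were Anxa2 (r = 0.94), Fbln5, an elastic fibre protein (0.93), and Mgp, a matrix protein (0.93). Meningeal fibroblast markers summed to 381 CPM in WTEE-10 and reached 518 CPM in KDEE, against a median of 131 CPM in KDEE and 130 CPM in WTEE. Its deviations followed those of C1qa with r = 0.74 (permutation p = 0.0151, adjusted p = 0.0227), but with r = 0.49 without WTEE-10 and KDEE-20.

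None of the 8 genes passed a comparison of genotypes. In KDSH against WTSH their log2 differences ran from -0.21 (Serping1) to 0.26 (C4a), and in KDEE against WTEE from -0.25 (Serping1) to 0.48 (C3, SE 0.30, 95% interval -0.14 to 1.10). Over both housings they ran from -0.23 (Serping1) to 0.32 (C3, SE 0.23), with an adjusted p of 0.9996 for each. The 95% intervals of the C1q genes and C4b lay between -0.32 and 0.23. For the interaction the range was -0.43 (C4a) to 0.31 (C3, SE 0.46), and the intervals were wider, reaching 1.26 for C3. A housing effect that depended on MSK1 was thus not detected for any member, but the intervals do not bound one closely. They ran from -0.91 to 0.05 for C4a and from -0.69 to 0.37 for C1qa, and were widest for C3 and Serping1. Without the choroid-rich libraries C3 was 0.79 higher in KDSH than in WTSH (SE 0.31, unadjusted p = 0.0217, adjusted p = 0.9998) and 0.56 higher in KD mice over both housings (SE 0.21, unadjusted p = 0.0167, adjusted p = 0.9997), and its interaction turned to -0.45 (SE 0.42). Without WTEE-10 the C1q differences of KDEE against WTEE turned from between -0.18 and -0.08 to between 0.04 and 0.11, that of Serping1 from -0.25 to 0.27, and the interaction of Serping1 from -0.04 to 0.48 (SE 0.29).

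The 3 libraries the study left out were scaled with the other 21 by TMM over all 24. KDSH-6 lay above the other KDSH mice for C1qa (3992), C1qb (4173), C1qc (3478) and Serping1 (338), and within their range for the other 4 members. WTSH-4 lay below the kept WTSH mice for C1qa (2404), C1qb (2095), C1qc (1750) and Serping1 (168), and WTSH-7 for C1qa (2434), C1qb (2533), C1qc (2221), C4b (9909) and Serping1 (271). Their log2 ratios of C4a to C4b were -6.03, -6.49 and -6.22, inside the range of their groups. With all 24 libraries the C1q log2 differences in WT mice were 0.56, 0.56 and 0.53 (adjusted p = 0.246 for each) and those in MSK1 KD mice 0.24, 0.16 and 0.22. No member was called by edgeR with all 24, and DESeq2 then called C1qa and C4a for housing over both genotypes (adjusted p = 0.0308 and 0.00657). C1qb, C1qc and C3ar1 also had a DESeq2 adjusted p under 0.05 there (0.0465, 0.0304 and 0.0461). Their log2 differences of 0.362, 0.377 and 0.317 were below the fold threshold of 0.38, so C1qa was not set apart from the other chains.

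The rest of the pathway was taken from a list of 58 other complement genes, of which 44 passed the filter. None was called in any comparison. For housing over both genotypes 12 of 44 passed an unadjusted p of 0.05 (27.3%, against 18.9% of all genes; 10 of 44 without the choroid-rich libraries), 5 higher and 7 lower in enriched mice, and the median log2 difference was 0.00. In WTEE against WTSH 0 passed, in KDEE against KDSH 7 (15.9%), and in KDEE against WTEE 1, Itgam, a chain of complement receptor 3 (0.25, SE 0.11, adjusted p = 0.885). Of the 7, the regulators Clu (0.32, SE 0.11, adjusted p = 0.375), Cd55, Cd59a and Cpn1 were higher in KDEE, and Cfp, C8g and Nptxr were lower. In KDSH against WTSH, for genotype over both housings and for the interaction, 0 passed.

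Among the initiators, C1ra, the C1r protease, was higher by 0.29 and Masp2, a lectin pathway protease, lower by 0.30 (SE 0.11, adjusted p = 0.215). Among the C3 and C5 convertase genes, Cfp, the stabilizing factor properdin, was lower by 0.28 (SE 0.10, adjusted p = 0.218) over both genotypes and by 0.42 (SE 0.14, adjusted p = 0.353) in MSK1 KD mice. C8g, of the terminal pathway, was lower by 0.22. Among the receptors, Itgb2 was higher by 0.17 and Cr1l lower by 0.10. Among the regulators, Clu, clusterin, was higher by 0.27 (SE 0.08, unadjusted p = 0.00409, adjusted p = 0.196), as were Cd59a (0.68), which blocks the membrane attack complex, and Vtn, vitronectin (0.37). Csmd2 was lower by 0.32. In MSK1 KD mice Cd59a was higher by 1.05 (SE 0.45), by 0.49 without KDEE-12 alone, and by 0.23 (SE 0.15) without the choroid-rich libraries. Over both genotypes, without the choroid-rich libraries, Cd59a was at 0.13, Vtn at 0.14, C1ra at 0.14 and Clu at 0.18. Of 10 genes of neuronal proteins that bind or resemble complement proteins, 3 were higher and 7 lower, with Nptx1 (-0.24) and Nptxr (-0.15) past an unadjusted p of 0.05. The smallest unadjusted p in WTEE against WTSH were those of Vtn (0.42, SE 0.21), Nptx1 (-0.26) and Masp2 (-0.29), each with adjusted p = 0.651. Without WTEE-10 Vtn was at 0.11 and Nptx1 at -0.15.

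In the other comparisons the list gave the following smallest unadjusted p, none past adjustment. In KDSH against WTSH they were those of Hc, the gene of C5 (0.55, SE 0.33), Cd59a (-0.64, SE 0.48) and Cd55 (-0.33, SE 0.25). Without WTSH-19 those of Cd59a and Cd55 were -0.19 and -0.10. In KDEE against WTEE they were those of Itgam, C1s2 (0.51, SE 0.26) and C1ql2 (-0.22, SE 0.11), and that of Itgam was 0.16 without WTEE-10. For genotype over both housings C1ql2 (-0.16, SE 0.09), C1s2 (0.32, SE 0.20) and Hc (0.32, SE 0.22) came first, and for the interaction Itgam (0.27, SE 0.16), Cd55 (0.45, SE 0.33) and Cfp (-0.27, SE 0.21). Without the choroid-rich libraries these last were 0.09, 0.05 and -0.06. The 14 genes that did not pass the filter had at most 11 counts in any kept library. They included Cfd, with at most 1 count, C9 with at most 1, and C6 with at most 3, so the alternative and terminal routes were measured only in part.

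**Figure D4:**
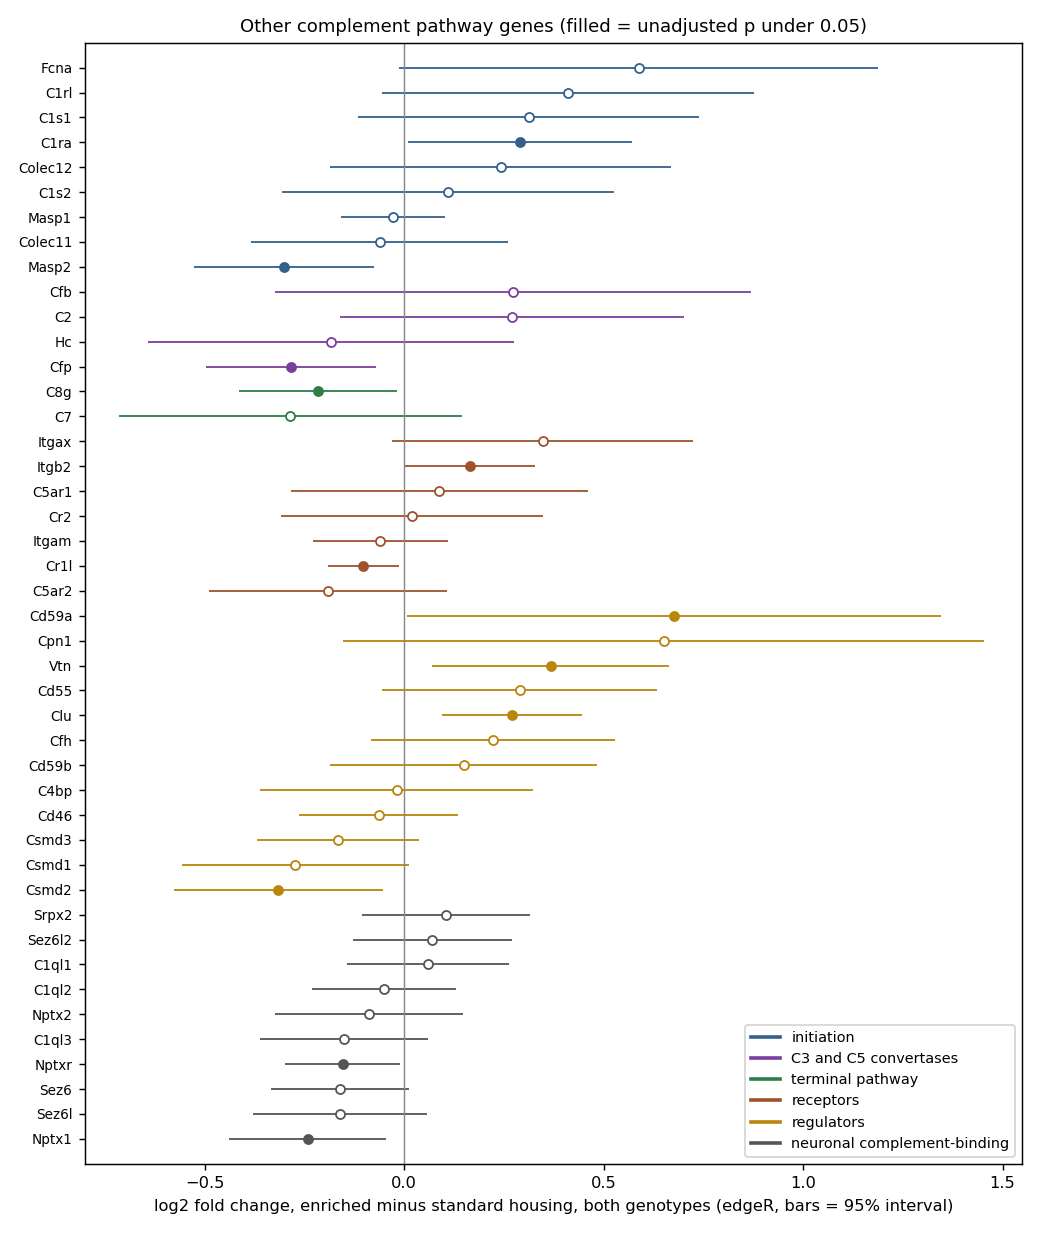
Log2 fold change for enriched minus standard housing over both genotypes (horizontal axis, edgeR, bars for the 95% interval) of the 44 other complement genes tested, coloured by role, with filled points for an unadjusted p under 0.05. The points lie on both sides of 0, from -0.32 for Csmd2 to 0.68 for Cd59a.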

How the data were processed

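Hippocampal poly-A RNA from 24 aged male mice (1 mouse per library) had been sequenced as 150-base pairs from unstranded libraries. The authors trimmed reads, aligned them to GRCm38 with STAR 2.5, and counted unique alignments per gene with HTSeq 0.6.1p1; the deposited files hold these raw counts per gene symbol, with 5 summary lines per file, which were left out here (pairs outside annotated exons were 8.41% to 15.7% of a kept library's counts). Samples were grouped by the labels, and the 3 libraries the study left out entered only named alternatives. Counts of 20187 genes kept by filterByExpr were scaled by TMM and fitted with all 4 groups in 1 model by edgeR 4.0.16 (quasi-likelihood F test, R 4.3.3), with Benjamini-Hochberg adjustment over all genes. All edgeR p-values and intervals in the text come from this fit or its named alternatives. DESeq2 1.42.0 was the alternative tool. On simulated data for KDEE against KDSH, with 200 of 19901 genes changed by a log2 of 1, edgeR recovered 189 with 9 false calls. On the same counts DESeq2 recovered 198 with 18 false calls. In WTEE against WTSH, where no gene was changed, edgeR made 0 false calls and DESeq2 made 2. A log2 change of 1 is larger than the differences of the members, so this recovery does not apply to them. The C4a to C4b ratio (pseudocount 0.5) was tested by exact two-sided permutation of libraries over 6 comparisons, and 9 pairs of members by 100000 permutations within groups. The genes named beside the members were, by rule, the 3 most alike by r and, from the other complement genes, the 3 smallest p of each comparison and those past an unadjusted p of 0.05. The members, gene lists and tests were chosen with earlier results of these data known, and the choroid-rich threshold of 1000 CPM, the fits without those libraries, the DESeq2 fits without 1 library or with all 24, and the omissions for other complement genes after seeing the data. Depth of 27410239 to 71907130 counts gave C4a 62 to 182 counts, so its counting error is the largest among the members. Alternatives were normalization, filters, fold threshold, samples and each library left out in turn.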

Additional observations from a re-analysis of the deposited data

Results flagged for a closer look

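A single mouse stood far from the rest of its group in 8 of 36 groups of values tested (Dixon's 95% criterion, which chance alone meets in about 1 of 20 groups). WTEE-10 was the highest WTEE mouse for C1qa (7174 normalized counts, the next 4088), C1qb (7135, the next 3905), C1qc (5710, the next 3448) and Serping1 (1143, the next 368). WTSH-19 was the highest WTSH mouse for C3 (1200, the next 443) and C4b (15187, the next 11261). KDSH-24 was the lowest KDSH mouse for C1qa (2273, the next 3073) and C1qb (2459, the next 3216). The C1q genes vary together, so their flags are not independent. The difference of the housing effect between genotypes passed the threshold for 0 of 8 members.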

How the results depend on the processing

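With edgeR no member was called under any alternative. In KDEE against KDSH the number called by DESeq2 was 1 (C4a) with default filtering, 1 with filtering tuned to 0.05 and 1 with all 24 libraries, and 0 to 1 when each library was left out in turn. For housing over both genotypes it was 1, 1 and 2 in the same order and 1 without the choroid-rich libraries, where DESeq2 called 31 genes in all. It was 0 to 4 over the single omissions, with 3 without KDEE-20, 4 without WTSH-19 and 2 without WTEE-21. How many genes DESeq2 called in all with 1 library left out or with all 24 is not given here. Those member counts can therefore not be set against all genes. The ratio of C4a to C4b in WT mice ran from -0.72 (without WTSH-19) to -0.30 over single omissions. For genotype over both housings it ran from -0.0476 (without WTSH-19) to 0.16, and was -0.0322 without the choroid-rich libraries. The C3 difference in WT mice ran from -0.11 to 0.70 by edgeR and was -0.105, -0.0829 and -0.0303 by DESeq2 without WTSH-2, WTSH-5 and WTSH-23. That of Serping1 ran from -0.0675 (without WTEE-10; -0.0683 by DESeq2) to 0.59. The cause of these shifts was not tested. Among single-gene values, 1460 kept direction and side of the threshold, 26 came to pass it and 8 turned direction. No paired analysis was possible because each sample number occurs in only 1 group. Sample numbers 1 to 8 were all standard-housed mice and 9 to 17 all enriched mice, and only 18 to 24 held both. Whether the numbers follow an order of processing is not known here. Their part in the housing differences was not tested. Depth limits C4a and C3ar1 most.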

Other observations

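The marker lists of other cell types had these values for housing over both genotypes, with no gene called among them. All 10 choroid plexus markers were higher in enriched mice (7 at an unadjusted p under 0.05), with a median log2 difference of 2.30, and in KDEE against KDSH all 10 passed that level with a median of 3.85. These averages rest largely on the choroid-rich libraries, at 2734 to 9913 CPM for the sum of the markers. The median sum was 81.4 CPM in WTSH, 83.5 in WTEE, 48.4 in KDSH and 124 in KDEE. Of 9 meningeal fibroblast markers 8 were higher (1 at an unadjusted p under 0.05), with a median of 0.37, and of 8 endothelial and mural markers 7 (2 at that level), with a median of 0.12. The 3 pituitary genes tested had a median of 4.45 in WT mice and -6.31 in MSK1 KD mice, where 1 KDSH library reached 243 CPM for their sum. All 7 oligodendrocyte markers were higher (5 at an unadjusted p under 0.05), with a median log2 difference of 0.24, and 7 of 10 astrocyte markers were higher (5 at that level), with a median of 0.15. All 6 perivascular macrophage markers were higher (1 at that level, Ms4a7), with a median of 0.24. All 8 interferon-stimulated genes were higher (0 at that level), with a median of 0.24. Of 7 neuronal markers 2 were higher, with a median of -0.05. The 5 blood genes summed to 56.1 to 72.8 CPM in WTSH, 56.2 to 392 in WTEE, 37.0 to 77.5 in KDSH and 72.6 to 242 in KDEE.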
